A study of Mus musculus with 18 samples.

Results

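Transcripts of G1E-ER4 cells after 7 h of estradiol were compared with those after 3 h, which shows what followed the first response to Gata-1-ER. The comparison used 6 of the 18 arrays of the series, the 3 arrays of each of these times, chosen by their titles, and covered all 12422 probe sets that are not array controls. G1E is a mouse erythroid line obtained from embryonic stem cells whose Gata-1 gene was disrupted by targeting. Its ER4 subclone carries Gata-1-ER, a fusion of Gata-1 with the ligand-binding part of the estrogen receptor, and estradiol in the medium makes it active. Both groups were therefore the same Gata-1-deficient clone with the same fusion, and they differed in 3 h or 7 h of estradiol. Each had 3 biological replicates, A, B and C, with 1 Affymetrix MG-U74Av2 array each. Arrays of untreated cells (0 h) and of 14, 21 and 30 h, again 3 each, served as reference points. All arrays came from 1 clone, and none among the 18 was of estradiol-treated cells without the fusion or of untreated cells kept for 3 or 7 h. The effect of time in culture and of estradiol itself on a transcript can therefore not be told apart from that of Gata-1-ER. The labels do not say whether replicates were separate cultures or days, so the p-values measure only the spread between these arrays.

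Gata-1 is a zinc finger transcription factor without which red cell precursors do not mature. It binds short DNA words built on GATA, often together with Tal1 and Klf1 complexes, and it can raise or lower the genes nearby. Known targets in erythroid cells include the erythropoietin receptor, the enzymes of heme synthesis, proteins of the red cell membrane and skeleton, and Gata2, which it represses.

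Ptdss2, Csf2rb2, Cbfa2t3 and Epor, which all changed in this interval, had a Gata word in the sequence around a transcription start, and these promoters are printed so that the words can be seen. Each is the RefSeq sequence of build GRCm38.p6 (5' to 3' on the gene's strand) from 250 bases before the start to 50 after it, with the Gata word in capitals. The search was for GATAA and for GATAG, each with A or T in front, on both strands, so TGATAA on the opposite strand reads TTATCA here. Likewise AGATAA reads TTATCT. The Ptdss2 promoter lies at chr7:141131036-141131335 on the plus strand and the word begins 145 bases before the start. That of Csf2rb2 lies at chr15:78305672-78305971 on the minus strand, with the word 38 bases before the start. The Cbfa2t3 promoter is at chr8:122699060-122699359 on the minus strand, with the word 118 bases before the start, and a second listed start of this gene had none. The Epor promoter is at chr9:21963527-21963826 on the minus strand, with the word 54 bases before the start.
Ptdss2: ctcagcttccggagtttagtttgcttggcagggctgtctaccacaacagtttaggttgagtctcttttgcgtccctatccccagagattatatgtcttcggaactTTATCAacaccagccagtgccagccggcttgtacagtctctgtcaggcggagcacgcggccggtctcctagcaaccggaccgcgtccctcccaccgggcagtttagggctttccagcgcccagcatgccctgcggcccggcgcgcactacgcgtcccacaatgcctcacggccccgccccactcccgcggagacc
Csf2rb2: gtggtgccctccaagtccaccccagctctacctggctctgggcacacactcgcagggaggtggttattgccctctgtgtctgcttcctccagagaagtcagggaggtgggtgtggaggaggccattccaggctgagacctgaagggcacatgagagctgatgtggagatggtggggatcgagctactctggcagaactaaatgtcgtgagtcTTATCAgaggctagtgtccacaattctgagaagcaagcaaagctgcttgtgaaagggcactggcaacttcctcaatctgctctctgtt
Cbfa2t3: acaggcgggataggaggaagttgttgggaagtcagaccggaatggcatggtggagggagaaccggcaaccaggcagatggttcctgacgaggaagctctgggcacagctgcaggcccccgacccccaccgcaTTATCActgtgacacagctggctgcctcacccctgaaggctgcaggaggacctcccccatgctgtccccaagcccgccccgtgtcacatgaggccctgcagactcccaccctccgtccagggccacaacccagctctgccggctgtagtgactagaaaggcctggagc
Epor: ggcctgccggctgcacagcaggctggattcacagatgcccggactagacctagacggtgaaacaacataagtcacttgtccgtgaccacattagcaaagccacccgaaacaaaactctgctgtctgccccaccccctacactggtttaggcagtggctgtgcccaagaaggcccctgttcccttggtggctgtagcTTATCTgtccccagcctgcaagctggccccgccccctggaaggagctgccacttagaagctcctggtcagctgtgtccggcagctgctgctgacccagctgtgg

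Of the 18 genes formed by the 14 largest rises and the other returning genes named here, 14 had a promoter in the table and these 4 held a word. That share is close to those of all promoters and of all measured genes given below. The table had no entry for Dmtn, St3gal2, Csf2rb and Scd2. Such a word stood in 9778 of all 32851 promoters of the table (29.8%). Counting a gene when any of its starts had a word, it stood in 1585 of 6572 measured genes (24.1%), in 28 of the 66 genes called higher at 7 h than at 3 h (42.4%) and in 3 of the 23 called lower (13%). These shares are a description, since no binding was measured.

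From 3 h to 7 h, more transcripts were called higher than lower. Over all genes 4081 of 8251 changes were above 0. Quantile normalization sets all arrays to 1 distribution, so this balance is partly fixed beforehand and serves as a baseline only. Genes of the red cell surface and skeleton (Ache, Dmtn), of phosphatidylserine synthesis (Ptdss2), of cytokine reception (Csf2rb, Csf2rb2, Epor, Pim1) and of heme supply (Tmem14c, Uros, Alas2) were among the rises. The membrane gene Tspan4, the myeloid lectin Clec4d and Rcc1, the activator of Ran, were among the falls. In the limma test with Benjamini-Hochberg adjustment over all probe sets, a probe set was called when its adjusted p was below 0.05. Called were 132 of 12422 probe sets (1.06%), 91 higher (0.733%) and 41 lower (0.330%), while 1199 had an unadjusted p below 0.05. At the level of genes, each read by its brightest probe set, 107 of 8251 were called (1.30%), 78 higher (0.945%) and 29 lower (0.351%). The median log2 change was 0.84 over the 78 genes and -0.84 over the 29, against 0.00 over all genes. Changes of at least 1 on the log2 scale were seen in 21 of the probe sets called higher and 11 of those called lower. In all 132 called probe sets the 3 arrays of 1 time lay beyond the 3 of the other, as they did in 2149 of all probe sets (17.3%), or 1581 of all genes (19.2%). Where it is given below for a called gene, this lack of overlap is therefore no further support. The split between rises and falls moved with the scaling: when arrays were set to a common median, 21 probe sets were called higher and 22 lower.

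The arrays of the 2 times differed somewhat in level and in agreement. The median signal was 40.3 to 41.65 at 3 h and 42.8 to 47.1 at 7 h. Each array's mean correlation with the other arrays of its time was 0.972 to 0.973 at 3 h and 0.964 to 0.966 at 7 h, and its quality weight 1.135 to 1.357 and 0.847 to 1.107. With arrays weighted in this way, all 107 genes kept their call. Among the 78 genes called higher, replicate C was the lowest of the 7 h arrays in 36 (46.2%), against 31.5% of all genes. It was also the lowest of the 3 h arrays in 36 (46.2%), against 33.4%. The part of this in the calls was not tested, but each call was recomputed without each array. Of the 107 genes, 32 kept their call without any single array of these times, 30 higher and 2 lower. With scaling to a common median 33 kept it, and with the 6 compared arrays alone 16.

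Genes of the red cell surface and skeleton made the largest rises. Ache codes for acetylcholinesterase, an enzyme that mouse and human red cells carry on their surface. At 3 h its arrays read 14.4, 22.8 and 37.0 (replicates A, B and C), and at 7 h 324, 326 and 166. All 7 h arrays lay far above all 3 h arrays, with replicate C the lowest, and the log2 change after adding 16 to each signal was 2.71 (SE 0.31, adjusted p = 0.000148). Its 0 h signals, 20.7, 9.8 and 51.8, overlapped those of the 3 h arrays (0.06, SE 0.31, adjusted p = 0.995). No rise was thus seen by 3 h, although a small one could be missed at such dim signals. Dmtn, the gene of dematin, which bundles actin beneath the membrane, went from 34.8, 30.4 and 35.7 to 298, 277 and 205 (2.38, SE 0.21, adjusted p = 6.44e-06). The 3 h signals of Dmtn were nearly equal, and the lowest 7 h array was far above them. Both calls were kept without any single array and under each other setting tried.

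Of 16 measured genes listed for the red cell membrane and its skeleton, 5 were called higher and 0 lower, with a median change of 0.34 and 11 members above 0. For this and each list below, the baseline over all genes was 1.30% called and 4081 of 8251 above 0. Tspan33, a tetraspanin of erythroid cells also called Penumbra, went from 423, 480 and 507 to 903, 902 and 725 (0.88, SE 0.12, adjusted p = 0.000964). Mpp1, the p55 scaffold that joins the skeleton to the membrane, went from 1138, 1090 and 1363 to 1916, 2077 and 1846 (0.69, SE 0.11, adjusted p = 0.00403). Ank1, the ankyrin that links spectrin to membrane proteins, went from 1120, 1042 and 853 to 1796, 1934 and 1507 (0.81, SE 0.16, adjusted p = 0.0201). The probe set of Ank1 is of a kind that may read related transcripts (its name ends in _f_at). The same holds for a second that rose by 0.99 (adjusted p = 0.00533), while one more stood at 0.26 (adjusted p = 0.745). For Tspan33, Mpp1 and Ank1 the arrays of the 2 times did not overlap, as in every called gene. Slc4a1, the anion exchanger of mature red cells, was dim at both times and was not called (-0.19, adjusted p = 0.943). The calls of Tspan33, Mpp1 and Ank1 were lost with scaling to a common median, and that of Ank1 also without 3 h B, 3 h C, 7 h A or 7 h B (adjusted p up to 0.132).

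The genes most like Ache over the 18 arrays, by Pearson correlation of log2 values, were Tspan33 (r = 0.977), Ift20, a gene of ciliary transport (0.975), and Dmtn (0.972). These arrays share the 6 times, so a common course over time alone gives a high value.

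**Figure D1:**
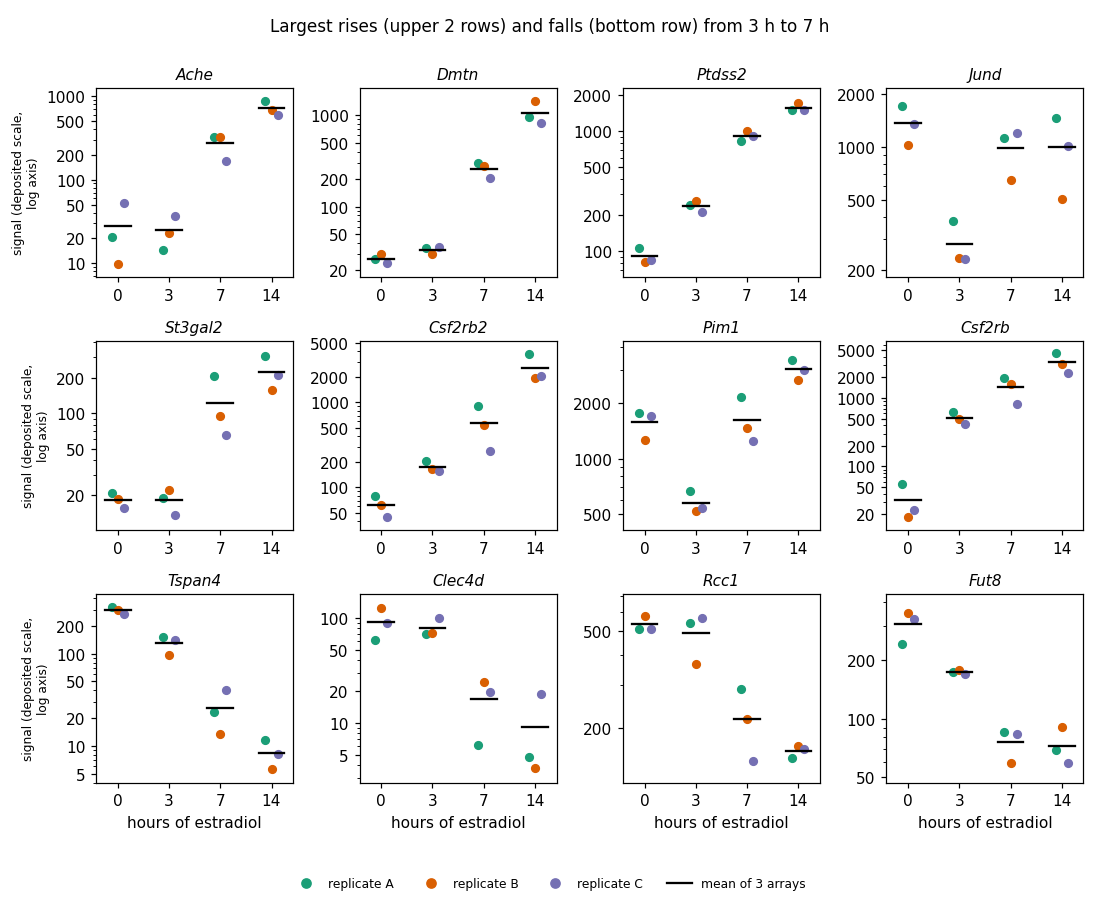
Signals on the deposited scale (log y axis, a range of its own in each panel) at 0, 3, 7 and 14 h of estradiol (x axis, evenly spaced and not to scale) for the 8 largest rises and the 4 largest falls from 3 h to 7 h. Points are arrays coloured by replicate and bars are means of 3 arrays. Ache and Dmtn had no called change at 3 h, whereas Jund and Pim1 had first fallen.

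Genes of heme supply rose at several steps. Of the 11 measured members of the heme list, 3 were called higher and 0 lower, and the median change was 0.35. Alas2, the erythroid form of the enzyme that starts heme synthesis, went from 249.1, 223 and 188 to 661, 415 and 283 (0.96, SE 0.22, adjusted p = 0.0433). Its 7 h arrays were spread more than 2-fold apart, with replicate A the highest and C the lowest, yet all lay above the 3 h arrays. The Alas2 probe set is of a kind that may read more than 1 transcript. Uros, which closes the ring of the heme precursor, went from 200, 271 and 263 to 446, 482 and 406 (0.86, SE 0.15, adjusted p = 0.00555). Tmem14c, a mitochondrial membrane protein needed for the last steps of heme synthesis, went from 2576, 2649 and 2605 to 4423, 5639 and 4569 (0.86, SE 0.11, adjusted p = 0.000607). The 3 h arrays of Tmem14c were nearly equal, and those of Uros lay closer to each other than to the 7 h arrays. Abcb10, a mitochondrial transporter of the list, had a change of 0.999 but was not called (adjusted p = 0.0869), and Fech, the enzyme that inserts iron, stood at -0.12 (adjusted p = 0.959).

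Hebp1, a heme-binding protein of the cytosol, was the called member of the 8 measured genes of iron uptake and handling. It went from 287, 307 and 296 to 540, 752 and 741 (1.19, SE 0.15, adjusted p = 0.000452), with replicate A the lowest at 7 h and no overlap. Tfrc, the transferrin receptor, had a change of 0.91 that was not called (adjusted p = 0.253). No globin gene of the 5 measured was called: Hbb-b2, the adult beta globin, had signals of 1716, 1976 and 2087 at 3 h and 2553, 2734 and 1789 at 7 h (0.28, adjusted p = 0.674). The Hbb-b2 arrays overlapped between the times, and cross-reading between globin genes is possible. The Hebp1 call was kept in each setting, those of Uros, Tmem14c and Alas2 were lost with scaling to a common median, and Alas2 was also lost without any array but 7 h C (adjusted p up to 0.203).

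Several enzymes that make or modify membrane lipids and sugar chains rose. Ptdss2, which makes phosphatidylserine, a phospholipid of the inner membrane leaflet, went from 241, 264 and 214 to 835, 1002 and 921 (1.94, SE 0.12, adjusted p = 2.55e-08). It had the smallest p of all probe sets, its arrays were close at both times, and it had already risen by 3 h (1.26, adjusted p = 3.84e-06). St3gal2, which adds sialic acid to glycoproteins and gangliosides, went from 19.2, 22.4 and 13.7 to 207, 95.5 and 64.7 (1.79, SE 0.30, adjusted p = 0.00555). Its 3 h signals were dim and its 7 h signals spread widely, with replicate A more than 3 times replicate C. St3gal5, a sialyltransferase that starts the gangliosides, went from 695, 705 and 500 to 1121, 1115 and 1025 (0.84, SE 0.14, adjusted p = 0.00555), read by a probe set of an uncertain kind, and this call was lost with scaling to a common median. In the list of phospholipid, fatty acid and cholesterol synthesis, 2 of 25 members were called higher, Ptdss2 and Scd2, and 0 lower, with a median of 0.37 and 22 members above 0. The cholesterol enzyme Lss stood at 0.89 without a call (adjusted p = 0.120), and Ptdss1, the other phosphatidylserine synthase, at -0.14 (adjusted p = 0.900).

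Of the cytokine receptor list, the receptor chains Csf2rb, Csf2rb2 and Epor rose with the kinase Pim1, and none of the list's 22 measured members was called lower (median change 0.29, with 16 members above 0). Csf2rb, the chain shared by the receptors for interleukin 3, interleukin 5 and GM-CSF, went from 628, 496 and 420 to 1968, 1600 and 831 (1.48, SE 0.32, adjusted p = 0.0322). Csf2rb2, its near-identical neighbour that serves interleukin 3 in the mouse, went from 202, 166 and 156 to 902, 538 and 267 (1.501, SE 0.32, adjusted p = 0.0310). In both genes replicate A was the highest and C the lowest at 7 h, and all 7 h arrays lay above the 3 h arrays. The probe sets of this pair may read each other's transcripts, so they are not independent measurements. Both calls were lost when any array but 7 h C was left out (adjusted p up to 0.151 for Csf2rb and 0.128 for Csf2rb2), and that of Csf2rb also with scaling to a common median. The other called members, Epor and Pim1, are described with the returns. Socs1, an inhibitor of Jak kinases, and Cish, a target of Stat5, stood at 1.12 and 0.72 without a call (adjusted p = 0.146 and 0.0623).

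Returns were rises at 7 h of genes that had been called lower at 3 h than at 0 h. Of 32 genes called lower at 3 h (0.388% of all genes), 6 rose from 3 h to 7 h, namely Jund, Pim1, Cbfa2t3, Epor, Scd2 and Cdc42se1. Of the 84 called higher at 3 h (1.02%), 0 were called lower from 3 h to 7 h, although 1 gene, Zfp207, met this with array quality weights and with the compared times alone, and 2, Ckap4 and Gcg, without 3 h A. Both contrasts use the 3 h arrays, so the fall and the rise of a gene are not independent measurements. Each gene is also given at 7 h against 0 h, a contrast that shares its arrays with them.

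Jund, which codes for an AP-1 subunit, read 1713, 1028 and 1358 before estradiol, 378, 234 and 231 after 3 h and 1128, 650 and 1204 after 7 h. The rise from 3 h to 7 h was 1.82 (SE 0.33, adjusted p = 0.00980) after a fall of -2.34, and the 7 h arrays overlapped those of 0 h (-0.52, adjusted p = 0.580). Pim1, a survival kinase induced by Stat5, read 1766, 1253 and 1707 before estradiol, 665, 520 and 539 after 3 h and 2145, 1458 and 1243 after 7 h. It rose by 1.498 (SE 0.21, adjusted p = 0.000964), its second probe set by 1.25 (adjusted p = 0.0334), and its 7 h level did not differ from 0 h beyond the spread (-0.03, adjusted p = 0.981). At 14 h Pim1 stood higher than at 0 h, at 3431, 2664 and 3018 (0.87, adjusted p = 0.00662), while Jund, at 1473, 505 and 1020, did not (-0.60, adjusted p = 0.307).

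Epor, the receptor for erythropoietin, on which red cell precursors depend for survival, read 583, 569 and 602 before estradiol, 368, 357 and 395 after 3 h and 753, 711 and 590 after 7 h. Replicates lay close together at 0 h and 3 h, and replicate C was the lowest at 7 h. The rise was 0.90 (SE 0.11, adjusted p = 0.000452) after a fall of -0.67 (adjusted p = 0.00298), and 7 h and 0 h differed by 0.23 (adjusted p = 0.369). Cbfa2t3, the corepressor Eto2 of Tal1 complexes, read 423, 300 and 329 before estradiol, 40.2, 65.2 and 65.9 after 3 h and 141, 134 and 135 after 7 h. It rose by 1.03 (SE 0.18, adjusted p = 0.00635), but its return was partial: at 7 h it was still called lower than at 0 h (-1.25, adjusted p = 0.000193). At 14 h it was again lower, at 149, 167 and 118 (-1.16, adjusted p = 0.000134). A second, dim Cbfa2t3 probe set had a change of -0.05 from 3 h to 7 h.

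Scd2, which puts a double bond into fatty acids, read 2797, 3354 and 3203 before estradiol, 1644, 1580 and 1923 after 3 h and 3146, 2692 and 3074 after 7 h (0.76, SE 0.18, adjusted p = 0.0488). Its second probe set, of an uncertain kind, stood at 0.15 (adjusted p = 0.836), and at 14 h the first was again below 0 h (-0.66, adjusted p = 0.0179). Cdc42se1, a small effector of the GTPase Cdc42, read 622, 575 and 584 before estradiol, 411, 411 and 292 after 3 h and 652, 690 and 488 after 7 h (0.74, SE 0.16, adjusted p = 0.0334). In both genes the 7 h arrays overlapped those of 0 h, with a difference of -0.16 for Scd2 (adjusted p = 0.804) and 0.04 for Cdc42se1 (adjusted p = 0.970). With the 6 compared arrays alone, the calls of Cbfa2t3, Scd2 and Cdc42se1 were lost. Without any single array of 3 h or 7 h, the calls of Pim1, Epor and Cbfa2t3 were kept. That of Jund was lost without 3 h B, 3 h C or 7 h A (adjusted p up to 0.0627). That of Scd2 was lost whichever array was left out and that of Cdc42se1 without any but 7 h C (adjusted p up to 0.198 and 0.187), and with scaling to a common median the returns were 3, namely Jund, Pim1 and Cbfa2t3. Without 3 h C they were also 3, namely Pim1, Epor and Cbfa2t3.

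**Figure D2:**
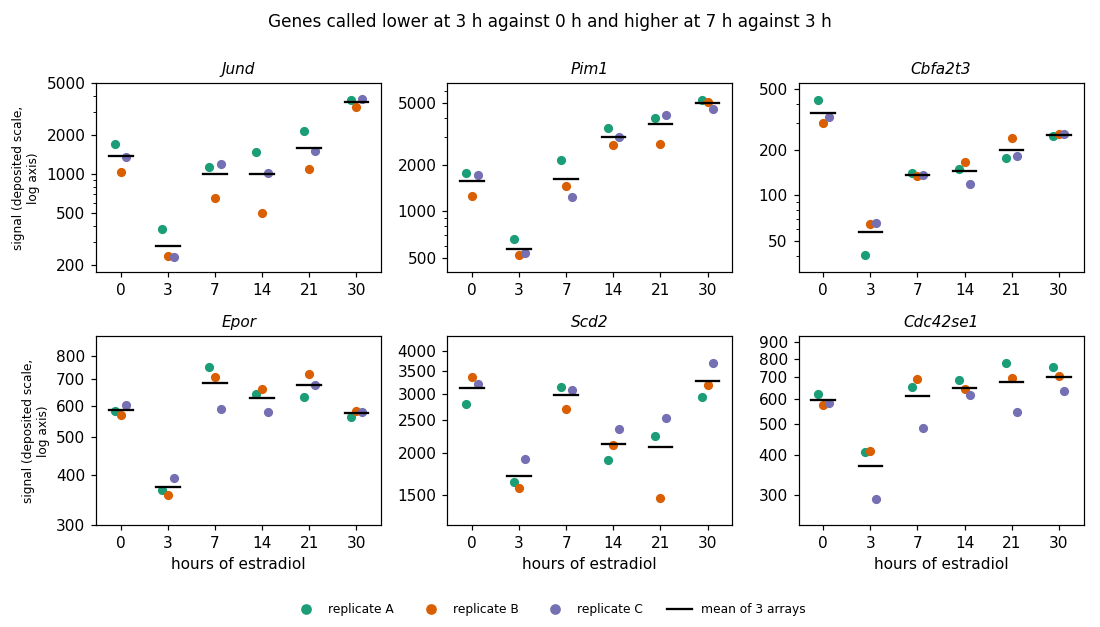
Signals on the deposited scale (log y axis) at each of the 6 times (x axis, evenly spaced and not to scale) for the 6 genes called lower at 3 h than at 0 h and then higher at 7 h than at 3 h. Points are arrays coloured by replicate and bars are means of 3 arrays; Cbfa2t3 alone of the 6 was still called lower than untreated cells at 7 h.

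Other genes kept rising in the direction of their first change. Of the 78 genes called higher from 3 h to 7 h, 20 had been called higher at 3 h, 52 had not been called and 6 had been lower. Besides Ptdss2, Csf2rb, Hebp1 and Tmem14c, Rogdi, a gene mutated in a human syndrome of seizures and enamel defects, rose from 560, 534 and 423 to 1010, 1553 and 1032 (1.27, SE 0.16, adjusted p = 0.000452). Its 3 h change had been 1.88. Pfkm, the muscle-type phosphofructokinase of glycolysis, went from 705, 540 and 559 to 1120, 1099 and 1264 (0.99, SE 0.18, adjusted p = 0.00934) after a 3 h change of 1.62. Sun2, which ties the nuclear envelope to the cytoskeleton, went from 407, 382 and 235 to 650, 545 and 568 (0.83, SE 0.19, adjusted p = 0.0369). Replicate C was the lowest Sun2 array at 3 h and the call was lost without any array but 3 h A (adjusted p up to 0.198) and with scaling to a common median. The Pfkm call was lost without 3 h B or 3 h C (adjusted p up to 0.0585). Pfkm was the called member of 17 measured genes of glycolysis and glucose uptake, whose median was -0.15.

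Among erythroid transcription factors, Klf1, Klf13, Gfi1b and Cbfa2t3 rose. Of 21 measured members of the list, 4 were called higher and 0 lower, 19 were above 0, and the median was 0.44. Over all genes 1.30% were called and 4081 of 8251 were above 0. Klf1, the red cell factor that opens the adult beta globin gene, went from 1636, 2070 and 1743 to 2272, 3033 and 2726 (0.53, SE 0.11, adjusted p = 0.0288), and had also risen by 3 h (0.47). Klf13, a related zinc finger factor, went from 169, 331 and 218 to 572, 517 and 344 (0.99, SE 0.21, adjusted p = 0.0279), and its second probe set rose by 0.90 (adjusted p = 0.0201). Gfi1b, a repressor needed for red cell and platelet formation, went from 914, 1158 and 1046 to 1810, 1687 and 1526 (0.70, SE 0.16, adjusted p = 0.0395). As in every called gene, the arrays of the times did not overlap in Klf1, Klf13 and Gfi1b. In Klf13, however, the highest 3 h array came close to the lowest 7 h array. Cbfa2t3 was the other called member. The calls of Klf1, Klf13 and Gfi1b were lost with scaling to a common median and without at least 4 of the 6 single arrays (adjusted p up to 0.167, 0.167 and 0.217).

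The Gata factors themselves were not called in this interval. Gata1 had signals of 126, 150 and 136 at 3 h and 165, 221 and 207 at 7 h (0.46, SE 0.21, adjusted p = 0.492), all 7 h arrays lying above the 3 h arrays. It is not known here whether this probe set detects the fusion. Gata2 had 402, 611 and 350 at 3 h and 352, 275 and 389 at 7 h (-0.36, SE 0.23, adjusted p = 0.681), with overlap between the times. Gata2 had read 2092, 1940 and 1696 at 0 h and was already called lower at 3 h (-2.20, adjusted p = 1.7e-05). At 14 h it stood lower still, at 175, 127 and 123 (-3.71 against 0 h, adjusted p = 2.33e-09). Zfpm1, the Gata-1 partner Fog-1, stood at 0.44 (adjusted p = 0.244) and Nfe2 at 0.43 (adjusted p = 0.327).

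Genes that slow or license the cell cycle were among the rises. Btg2, an antiproliferative gene, went from 581, 678 and 426 to 1334, 1319 and 1109 (1.23, SE 0.22, adjusted p = 0.00861). Gadd45g, a stress gene that can hold cells before division, went from 115, 103 and 139 to 230, 336 and 381 (1.26, SE 0.24, adjusted p = 0.0139). Ccnd3, the D-type cyclin of late erythroid divisions, went from 545, 756 and 712 to 1003, 1943 and 1282 (1.04, SE 0.17, adjusted p = 0.00555), and its 0 h signals of 850, 957 and 969 lay above those of 3 h without a call (-0.50, adjusted p = 0.308). Cdc6, which loads the replication helicase, went from 815, 879 and 899 to 1175, 1385 and 1340 (0.61, SE 0.11, adjusted p = 0.00983). No arrays overlapped in these 4 genes, as in every called gene. Cdc6 moved against its list: of 29 measured DNA replication genes it was the called member, 3 were above 0 and the median was -0.23. Of 24 measured G1 cyclins and cell cycle inhibitors, Gadd45g and Ccnd3 were called and the median was 0.09. Of 25 measured AP-1, Egr and immediate early genes, Jund and Btg2 were called and the median was 0.18. Btg2 was lost without 3 h C (adjusted p = 0.0677), Gadd45g without 3 h A, 3 h B, 7 h B or 7 h C (adjusted p up to 0.0815) and Cdc6 without 3 h A or 7 h B (adjusted p up to 0.0620). With scaling to a common median Ccnd3 and Cdc6 were lost.

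Among the remaining large rises, Tac2, the precursor of neurokinin B, went from 14.2, 10.7 and 11.1 to 85.9, 45.3 and 53.6 (1.34, SE 0.29, adjusted p = 0.0334). Thyn1, read by a probe set of an uncertain kind, went from 83.0, 61.4 and 62.5 to 172, 184 and 206 (1.22, SE 0.27, adjusted p = 0.0369), while its other probe set stood at -0.17 (adjusted p = 0.912). Both calls were lost whichever single array was left out (adjusted p up to 0.136 and 0.151). Ctsb, the lysosomal protease cathepsin B, went from 480, 481 and 467 to 873, 901 and 687 (0.82, SE 0.14, adjusted p = 0.00709). Its 3 h arrays were nearly equal, and 3 other, dim probe sets of Ctsb were not called. The Ctsb call was lost with scaling to a common median and with the compared times alone, that of Thyn1 likewise. Of the 24 measured genes of autophagy and lysosome, Ctsb was called higher and Ctse, cathepsin E, lower (-0.81, SE 0.19, adjusted p = 0.0429). The Ctse call was lost whichever single array was left out (adjusted p up to 0.236). Other Ctse probe sets, dimmer and of an uncertain kind, stood at 0.63 and 0.05 without a call (adjusted p = 0.749 and 0.99). With each gene's probe sets averaged, no member of this list was called. The median of the list was 0.22.

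Some called genes stood in none of the lists and are given because of their values. Grina, a membrane protein related to the Bax inhibitor family, went from 372, 431 and 388 to 873, 818 and 772 (1.09, SE 0.12, adjusted p = 0.000148), and its second probe set rose by 0.99 (adjusted p = 0.0116). Plin2, which coats lipid droplets, went from 2075, 2245 and 1702 to 3244, 4680 and 3739 (0.94, SE 0.14, adjusted p = 0.00190). Npc2, which carries cholesterol in lysosomes, rose by 0.86 (adjusted p = 0.00670), Smpd1, the lysosomal sphingomyelinase, by 0.76 (adjusted p = 0.00555) and Acp5, a lysosomal acid phosphatase, by 0.86 (adjusted p = 0.0488). Eif2ak1, the heme-regulated kinase that slows translation, rose by 0.86 (adjusted p = 0.0426), and Ppp1r15a, a stress-induced gene whose product reverses the same phosphorylation, by 0.99 (adjusted p = 0.00555). With scaling to a common median, Grina alone of these 7 genes kept its call. Calls of Grina, Plin2, Smpd1 and Ppp1r15a were kept without any single array, that of Npc2 was lost without 3 h C (adjusted p = 0.0510) that of Acp5 without any but 7 h C (adjusted p up to 0.261) and that of Eif2ak1 without any but 3 h A (adjusted p up to 0.237). Eif2ak1 was also lost with the replicate letter as a block (adjusted p = 0.0591).

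Fewer genes were called lower than higher. Tspan4, a tetraspanin and the called member of 15 stem and progenitor regulators (median -0.11), had signals of 151, 96.3 and 140 at 3 h and 23.6, 13.3 and 40.4 at 7 h (-1.83, SE 0.26, adjusted p = 0.00120). It was the single fall of the 29 that had also been called lower at 3 h (-1.11), and at 14 h it stood at 11.7, 5.6 and 8.1. The Tspan4 call was kept without any single array but lost with the 6 compared arrays alone. Clec4d, a C-type lectin receptor and the called member of 22 neutrophil and macrophage markers (median 0.12), went from 70.0, 72.7 and 99.4 to 6.2, 24.8 and 19.8 (-1.57, SE 0.30, adjusted p = 0.0114). Rcc1, which loads Ran with GTP on chromatin, went from 541, 367 and 568 to 289, 218 and 147 (-1.14, SE 0.21, adjusted p = 0.00983). Fut8, which adds core fucose to proteins, went from 173, 178 and 170 to 85.8, 58.8 and 83.0 (-1.06, SE 0.22, adjusted p = 0.0246). In none of these genes did the times overlap, as in every called gene, and the 3 h arrays of Fut8 were nearly equal. In bulk RNA of this kind, fewer cells that carry a transcript and less of it per cell cannot be told apart. The Clec4d call was lost without 3 h C or 7 h A (adjusted p up to 0.0761), that of Rcc1 without 3 h A, 3 h C or 7 h C (adjusted p up to 0.0777) and that of Fut8 without any array but 7 h C (adjusted p up to 0.126).

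Zfp207, a zinc finger protein of the spindle, had a course of its own. It read 391, 363 and 345 before estradiol, 617, 543 and 603 after 3 h and 339, 272 and 271 after 7 h. The 3 h arrays stood above all arrays of both other times, but the 3 h rise was not called (0.66, adjusted p = 0.0671). The fall from 3 h was -0.97 (SE 0.17, adjusted p = 0.00630), and its call was kept in every setting in which single probe sets were read. Cirbp, a cold-inducible RNA-binding protein, went from 331, 314 and 246 to 205, 130 and 107 (-0.94, SE 0.21, adjusted p = 0.0374) and had been 225, 249.4 and 187 at 0 h. Ikzf2, the lymphoid factor Helios, was dim at each time, going from 27.5, 36.4 and 24.1 to 8.1, 9.1 and 3.9 (-1.04, adjusted p = 0.0360). Fkbp5, a cochaperone of steroid receptors, fell from a mean of 196 to 85.3 (-1.05, SE 0.24, adjusted p = 0.0369), and Sfxn1, a mitochondrial serine carrier, from 812 to 421 (-0.91, SE 0.21, adjusted p = 0.0410). Vdac2, a pore of the outer mitochondrial membrane read by a probe set of an uncertain kind, fell by 1.02 on the log2 scale (adjusted p = 0.0395). The calls of Ikzf2, Fkbp5 and Sfxn1 were lost without any single array, and those of Cirbp and Vdac2 without most (adjusted p up to 0.139, 0.185, 0.244, 0.176 and 0.227). With the replicate letter as a block, Vdac2 and Sfxn1 were not called (adjusted p = 0.0525 and 0.0566), and with scaling to a common median Ikzf2 and Sfxn1 were not.

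Nsun2, Rrs1 and Rars, which serve protein synthesis, fell. Nsun2, which methylates cytosine in transfer RNA, went from 1491, 1509 and 1684 to 847, 717 and 1002 (-0.90, SE 0.16, adjusted p = 0.00734), read by a probe set of an uncertain kind. Of its other bright probe sets, both of plain kind, 1 was called (-0.76) and the other was not (-0.74, adjusted p = 0.205). Rrs1, a ribosome assembly factor, went from 859, 729 and 891 to 450, 492 and 403 (-0.88, SE 0.20, adjusted p = 0.0397). Rars, which charges transfer RNA with arginine, went from 750, 829 and 865 to 412, 499 and 397 (-0.91, SE 0.21, adjusted p = 0.0454). In all 3 the times did not overlap, as in every called gene. Of 27 measured ribosome biogenesis genes Rrs1 was called lower and 0 higher, 1 was above 0, and the median was -0.40. When every probe set of a gene was averaged in place of taking the brightest, this median was -0.21, with 3 members above 0. Outside the lists, Wdr74 (-0.78), Wdr43 (-0.705), Pum3 (-0.65) and Ddx18 (-0.605) were also called lower (adjusted p 0.0334 to 0.0395). Other probe sets of Wdr43 and Ddx18 stood at -0.68 and -0.11 without a call (adjusted p = 0.368 and 0.969). These calls were lost without at least 5 of the 6 single arrays, and that of Ddx18 also with scaling to a common median. Of 19 aminoacyl tRNA synthetases Rars was called, but none was with each gene's probe sets averaged, and the median was -0.24. Tars2, in none of the lists, was also called lower (-0.78, adjusted p = 0.0389). A Wars probe set of an uncertain kind, not the brightest of its gene, was called higher (0.855, adjusted p = 0.0374). Eif5, in none of the lists, was called higher too (0.44, adjusted p = 0.0398). Tars2 and Eif5 were lost without at least 5 of the 6 single arrays and with scaling to a common median. Of 20 genes of the Ran cycle and nuclear transport Rcc1 was called, with a median of -0.18. Mtm1, the lipid phosphatase myotubularin, was read as lower by a probe set of an uncertain kind (-0.85, adjusted p = 0.0334) and at -0.24 by another (adjusted p = 0.809). Rrs1 and Rars were lost whichever single array was left out (adjusted p up to 0.179 and 0.182) and with scaling to a common median, Nsun2 without 3 h C or 7 h B (adjusted p up to 0.0592) and Mtm1 without 5 of the 6 (adjusted p up to 0.166).

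Set beside all genes, of which 1.30% were called, the lists with the highest shares were red cell membrane and skeleton (31.2%), heme biosynthesis (27.3%), erythroid transcription factors (19%) and cytokine receptors (18.2%). With each gene's probe sets averaged, 5, 2, 3 and 3 members of these lists were called higher, in place of 5, 3, 4 and 4. The lists were written with earlier results of the same arrays known, so their shares are no independent evidence. No member was called among 14 red cell enzymes, 17 genes of the Myc network, 23 of mitosis, 21 of apoptosis, 29 of the respiratory chain, 17 ribosomal proteins, 26 of heat shock and unfolded proteins, 18 of the interferon response or 16 estrogen receptor targets, such as Sgk1 (-0.82, adjusted p = 0.130). The 6 measured histone genes had none either, with Macroh2a1 at -0.52 (adjusted p = 0.168). The medians of red cell enzymes, the Myc network, mitosis, ribosomal proteins and heat shock genes were within 0.06 of 0 and changed sign with the scaling, so they have no direction. The medians of the lists with called members kept their sign under each scaling, but with arrays set to a common median several moved by more than 1.5 times. Heme biosynthesis was then at 0.20, membrane and skeleton at 0.22, autophagy and lysosome at 0.09, and G1 cyclins and inhibitors at 0.005. DNA replication was at -0.35 and the Ran cycle at -0.29. Without quantile normalization the stem and progenitor regulators were at -0.04.

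**Figure D3:**
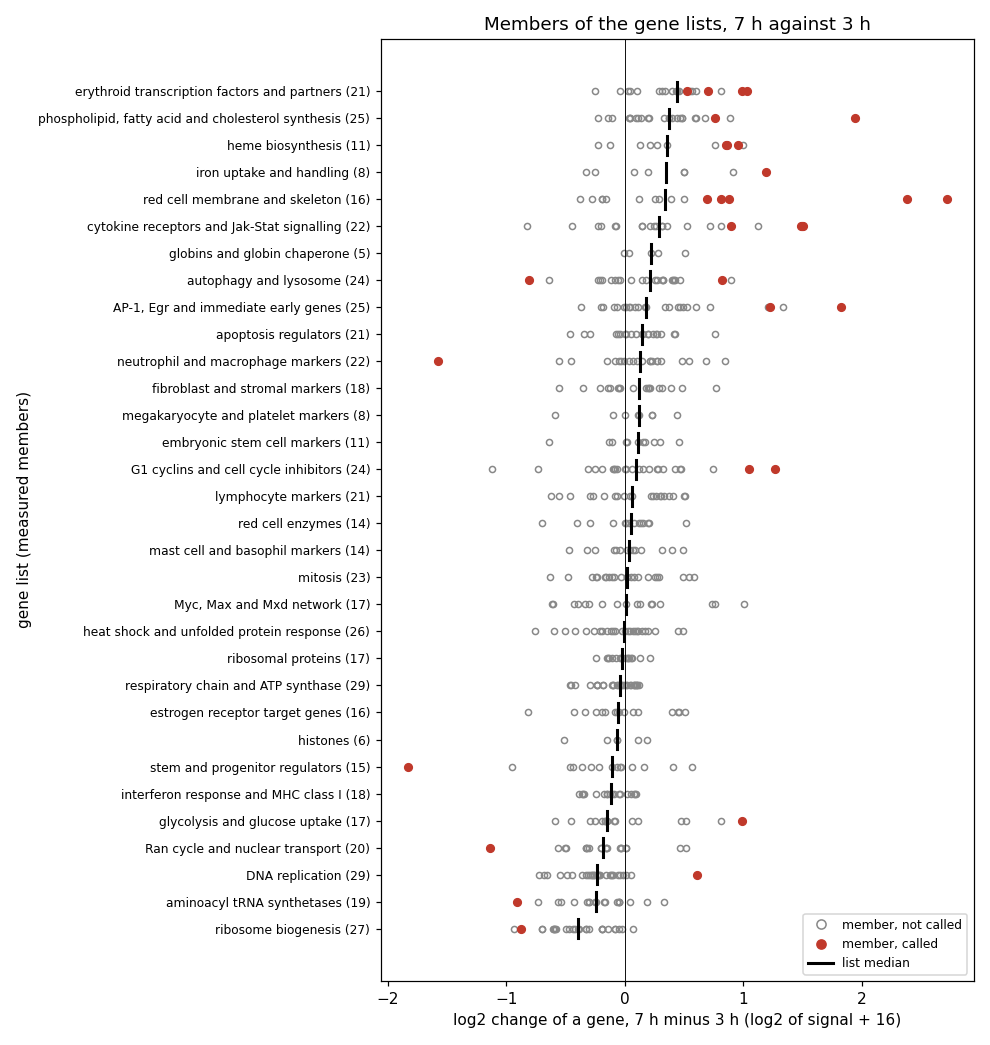
Log2 change from 3 h to 7 h (x axis, on log2 of the signal plus 16) of each measured member of the 32 gene lists (y axis, with the number of members). Filled red points are called members, open points members that were not called, and black bars list medians; the called members of heme, membrane and erythroid factor lists lie to the right, and ribosome biogenesis has the lowest median when a gene is read by its brightest probe set, -0.40.

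Markers of erythroid cells, the labelled type, ranged from dim (Slc4a1) to bright (Hba-a1). Of 10 defining markers 9 were measured, and 5 were called higher, namely Klf1, Epor, Alas2, Ank1 and Ache. The summed signal of the 9, most of it from Hba-a1 and Zfpm1, which were not called, was 12652 to 13622 at 3 h and 15335 to 19503 at 7 h. In these short lists of defining markers no marker of 6 other cell types was called, whereas Clec4d, above, belongs to a longer list of neutrophil and macrophage genes. Summed over all measured markers, the ranges at 3 h and at 7 h were 73.6 to 113 and 91.3 to 126 for 4 megakaryocyte markers, 88.6 to 124 and 132 to 162 for 6 mast cell markers, and 184 to 284 and 190 to 307 for 7 macrophage and neutrophil markers. They were 85.5 to 135 and 155 to 188 for 3 lymphocyte markers, 438 to 605 and 622 to 703 for 5 fibroblast markers, and 39.5 to 62.4 and 60.5 to 87.6 for 4 embryonic stem cell markers. The mast cell, lymphocyte and fibroblast sums did not overlap between the times. The fibroblast sum was mostly that of Col1a2, at 316 to 441 and 477 to 525, read by a probe set of an uncertain kind. Lyz2, a defining gene of macrophages, read 0.7 to 1.1 at 3 h and 1.2 to 4.4 at 7 h. No detection calls were used here, so which of these levels exceed background is unknown, and their part in the results was not tested.

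Most genes that changed from 3 h to 7 h stood on the same side of untreated cells later. The 14 h against 0 h contrast uses no array of the 7 h against 3 h contrast, although both were normalized together and share the spread estimate of each probe set. Of the 78 risers, 67 (85.9%) were called higher at 14 h than at 0 h, 2 lower and 9 neither way, where 8.0% of all genes were higher and 8.17% lower. Of the 29 fallers, 25 (86.2%) were called lower at 14 h, 0 higher and 4 neither way. All 20 risers that had also risen by 3 h were higher at 14 h, as were 46 of the 52 not called at 3 h (88.5%) and 1 of the 6 returns, Pim1. The median change at 14 h was 1.58 for the risers, -1.16 for the fallers and 0.01 for all genes. Dmtn reached 965, 1413 and 821 at 14 h (4.63 against 0 h, SE 0.21), Ache 877, 691 and 597 (4.21) and Hebp1 1476, 1310 and 1421 (3.43). Alas2, at 453 on average at 7 h, reached 2365 at 14 h. By contrast, Pfkm and Gadd45g stood at about the same level at both later times, with means of 1161 and 316 at 7 h and 1000 and 307 at 14 h, a difference that was not tested here. Against 0 h, 64 of the risers were already called higher at 7 h and 22 of the fallers lower, where 3.21% and 2.11% of all genes were called. In that contrast the 7 h arrays are shared, so it is no separate support.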

How the data were processed

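RNA of G1E-ER4 cells was measured on 18 Affymetrix MG-U74Av2 arrays, 1 for each of 3 biological replicates at 6 times. The authors deposited one linear signal intensity per probe set in each array. How probes were summarised, the scaling target and any detection calls are not given in the sources used here. Trimmed of 2% at each end, array means lay between 149.961 and 149.971, so the authors had scaled the deposited intensity values to a common level. Identical array pairs numbered 0, as did negative values.

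The 66 control probe sets of 12488 were left out. Gene symbols came from the platform annotation: 10833 probe sets had 1 symbol, 396 several and 1193 none. A gene was read by the brightest (mean log2) of its probe sets with 1 symbol, which gave 8251 genes, 2073 of them with more than 1 probe set. Probe sets of an uncertain kind have names ending in _s_at, _f_at, _i_at, _r_at or _g_at.

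From these values, log2(signal + 16) was computed and quantile normalized, and limma 3.58.1 (R 4.3.3) was fitted to all 18 arrays with 1 mean per time (12 residual degrees of freedom), with eBayes and an intensity trend. The constant understates changes of dim genes, and the number of calls also depended on it, as given below. P-values were adjusted over 12422 probe sets (Benjamini-Hochberg) within each contrast and called below 0.05. Exact permutation of 3 against 3 arrays cannot go below p = 0.1 (two-sided), so the tests rest on the spread estimate shared across probe sets. The number of arrays limits the precision. The procedure was tested on simulated data. Printed signals are deposited values and were not quantile normalized.

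Named were the 14 largest rises and falls among called genes without overlap, genes called in opposite directions in the 3 h and the 7 h contrast, up to 8 each way called the same way in both, called members of 32 gene lists or otherwise the member with the smallest p, and Gata1 and Gata2. Other genes were named after their values were seen: Grina, Plin2, Npc2, Smpd1, Acp5, Eif2ak1, Ppp1r15a, Ckap4 and Gcg, and list members or markers without a call. So were Wdr74, Wdr43, Pum3, Ddx18, Tars2, Eif5 and the Wars probe set. The comparison, the members and the lists were chosen with earlier results of these data known. Alternatives tried were no quantile normalization, a common median, constants of 1 and 64, the dimmest 33.3% left out, no intensity trend, array quality weights, a replicate block, the compared times alone, the mean over a gene's probe sets, and each array left out. The direction of lists under other scalings was added after seeing the data.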

Additional observations from a re-analysis of the deposited data

How the results depend on the processing

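No call of the 7 h against 3 h test changed its sign in any setting tried, but the number of calls did. In place of 132, the count was 43 with scaling to a common median, 63 without the intensity trend and 99 with a constant of 1 (77 higher and 22 lower). It was 19 with the 6 compared arrays alone (4 residual degrees of freedom) and 52 to 80 without 1 array of these times. Of the 107 genes, 33 kept their call with the common median, 47 without the trend and 16 with the compared arrays alone. With a constant of 1, 79 kept it, and with the mean over a gene's probe sets 82. Lost with a constant of 1 were, among others, Csf2rb, Tac2, Clec4d, Fkbp5, Ikzf2, Vdac2, Rars, Sfxn1, Rrs1, Mtm1, Scd2 and Ctse. In every setting in which single probe sets were read, 9 kept it (Ache, Dmtn, Ptdss2, Pim1, Rogdi, Hebp1, Zfp207, Epor and Grina). The 3 h against 0 h count of 132 was 202 with array quality weights and 78 to 105 without 1 array. The 7 h against 0 h count of 518 was 320 with the common median and 345 with the compared times alone. Genes called in opposite directions at 3 h and then at 7 h, in either order, numbered 3 with the common median, 10 with array quality weights and 3 to 6 without 1 array, in place of 6. Of these, 1 (Zfp207) with the weights and 2 without 3 h A had risen and then fallen. The cause of these differences was not tested, apart from the fewer arrays in some fits. With the replicate letter as a replicate block, 155 probe sets were called from 3 h to 7 h and 104 of the 107 genes kept their call, all but Vdac2, Sfxn1 and Eif2ak1. Deviations of same-letter arrays at 3 h and 7 h correlated at 0.034 (A), 0.049 (B) and 0.03 (C), each best with its own letter. At 0 h and 7 h they correlated at 0.134, 0.075 and 0.079, again each best with its own letter. This held for A alone at 0 h and 3 h (0.04, 0.012 and 0.009), and for A and C at 7 h and 14 h (0.04, -0.007 and 0.047). The main fit did not treat the letters as pairs, and a shared effect of the letter was not tested. Signal over background was not known, so changes of dim probe sets are the least certain.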

Other observations

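The largest fall of any probe set from 3 h to 7 h belonged to a probe set that carried no single gene symbol. Its signals were 292, 238 and 156 on the deposited scale at 3 h in the order of the replicates, and 55.3, 29.6 and 30.2 at 7 h (-2.12, SE 0.32, limma adjusted p = 0.00235). It had been 238, 189 and 242 at 0 h and stood at 25.6, 0.7 and 16.7 at 14 h.

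The single probe set called higher at 3 h than at 0 h (0.51, adjusted p = 0.0273) and then lower at 7 h (-0.54, adjusted p = 0.0237) was one named Svs4, a gene of seminal vesicle secretion. It was dim at each time, with a mean signal of 1.6 before estradiol, 8.13 after 3 h and 1.23 after 7 h, and was not the brightest probe set of its gene.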
